A study of Rattus norvegicus with 6 samples.

Results

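The cortex of the Brown Norway rat was set against the hypothalamus, across 2455 assembled long non-coding RNA (lncRNA) transcripts with values, at 1646 loci. The comparison takes in 2 of the 6 tissue samples of the study and all 2455 of its transcripts. The animals of both groups were untreated in the labels, of strain BN, male and 6 weeks old, and carried no stated allele or agent. Total RNA was extracted with TRIzol, a phenol reagent, and made into libraries with a TruSeq Stranded kit, which keeps the strand of origin. The other 4 tissues, outer medulla, left ventricle, liver and adrenal gland (spelled "adrenal glandin" in the labels), entered the fit only to share its estimate of spread and are quoted where their levels bear on a transcript. Abundance is given as FPKM, mapped fragments scaled to transcript length and library size, a level per length, in 2 columns per tissue.

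The hypothalamus columns carry the letter B and were matched to that tissue by elimination, because the other 5 codes fit the other 5 labels. Whether the 2 columns of 1 tissue are separate animals is not stated in the labels. A p-value below is therefore read against differences between columns alone, and those may be technical. The label "cortex" names no organ. In bulk tissue a lower value can reflect fewer cells of a type or less RNA per cell, and these cannot be told apart.

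LncRNAs are transcripts longer than the small RNA classes that encode no known protein. Some lie antisense to a protein-coding gene, some contain a small RNA such as a microRNA that is cut from the longer transcript, and many lie where no gene was annotated. They are known for narrower tissue distributions than messenger RNAs. The hypothalamus is a brain region of neurons and glia that governs hormone release, feeding and body temperature.

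The labels were compared with transcripts that overlap or oppose marker genes of kidney, neurons, glia, hypothalamus, brain cortex and adrenal gland. Of 43 kidney symbols, 3 occurred in the table. The transcript over Slc12a1, the sodium-potassium-chloride transporter of the kidney's thick ascending limb, had 12.2 and 14.7 FPKM in cortex and was listed at 0 in both hypothalamus columns. The outer medulla had 36.5 and 36.6 FPKM of it. The antisense transcripts of Slc34a3, a kidney phosphate transporter, and of Wt1, a podocyte transcription factor, were too low to test. The Slc34a3 antisense transcript had 0.15 and 0.70 FPKM in cortex and 0.095 and 0 FPKM in hypothalamus, and the Wt1 antisense transcript was listed at 0 in all 4 columns.

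Of 49 neuronal symbols, 4 occurred. The tested transcript at Mir124-2, which holds the neuronal microRNA miR-124, had 0.0054 and 0 FPKM in cortex and 1.85 and 1.31 FPKM in hypothalamus. The transcript over Mir137, another neuronal microRNA, was listed at 0 in both cortex columns and had 1.30 and 0.55 FPKM in hypothalamus. Among 12 symbols of the developing or adult brain cortex only Emx2 occurred, with an antisense transcript at 0.00028 and 0.52 FPKM in cortex and 0.017 and 0 FPKM in hypothalamus. None of 31 hypothalamic symbols, which include neuropeptide genes, occurred in this table. The other neuronal symbols were Snhg11 and Dlx6. Snhg11 had 4e-05 and 0.76 FPKM in cortex but 2.76 and 2.23 FPKM in outer medulla. Dlx6 had an antisense transcript at 0.018 and 0 FPKM in cortex. The neuronal transcripts were thus at or near 0 in cortex except for Snhg11 in column 2, and the kidney transporter's transcript was present in cortex below its outer medulla level. The tissue is called cortex below, as labelled.

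Some of the transcripts that separate the tissues overlap microRNA genes, and the mature microRNAs encoded there are shown because the 2 directions of the comparison hold different ones. The sequences come from RefSeq (rat build GRCr8), 5′ to 3′, with the seed (bases 2 to 8, the part that pairs with targets) in capitals. At loci called higher in hypothalamus they include:
rno-miR-384-5p: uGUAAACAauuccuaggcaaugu
rno-miR-384-3p: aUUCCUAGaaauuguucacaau
rno-miR-325-5p: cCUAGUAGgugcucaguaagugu
rno-miR-325-3p: uUUAUUGAgcaccuccuaucaa
rno-miR-129-5p: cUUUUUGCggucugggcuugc
rno-miR-129-2-3p: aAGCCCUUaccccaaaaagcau
At loci called higher in cortex they are:
rno-miR-675-5p: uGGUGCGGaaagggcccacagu
rno-miR-675-3p: uGUAUGCCcuaaccgcucagu
rno-miR-143-5p: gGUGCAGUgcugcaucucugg
rno-miR-143-3p: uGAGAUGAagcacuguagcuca
Within the RefSeq table the seed GUAAACA of rno-miR-384-5p also occurs in rno-miR-30a-5p, rno-miR-30c-5p and rno-miR-30e-5p, and the seed AGCCCUU of rno-miR-129-2-3p occurs in rno-miR-129-1-3p. The other 8 seeds shown occur in no second mature sequence of that table. Of 26 microRNA symbols in the FPKM table, 15 were matched. Mir124-2, Mir7a-2, Mir29b-2, Mir365 and rno-mir-679 are given by name only. The matched rno-miR-6326 is left out because the call at its locus did not hold in 7 settings, as given below. All FPKM values belong to the overlapping long transcripts, not to the mature microRNAs.

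Detection was set at 0.5 FPKM in both columns of a tissue, and the shared number depended on that level and on column scaling. By that rule 652 transcripts were detected in cortex and 388 in hypothalamus, and 154 in both, which is 23.6% of the cortex set and 39.7% of the hypothalamus set. A further 449 were detected in cortex with both hypothalamus columns below 0.5 FPKM, and 210 in hypothalamus with both cortex columns below it. With every column rescaled to the same median, 608 were detected in cortex, 591 in hypothalamus and 218 in both (35.9% and 36.9% of the sets). Those in cortex alone were then 334 and those in hypothalamus alone 330. At 0.1 FPKM as deposited, the shared part was 44.7% of the cortex set and 55.8% of the hypothalamus set. All 4 columns were below 0.5 FPKM for 1198 transcripts, and the 2 columns of a tissue lay on different sides for 444. The estimated depth was 17260000 and 14870000 fragments in cortex and 27570000 and 31900000 fragments in hypothalamus. For a transcript of 1 kb, 3 fragments correspond to 0.174 and 0.202 FPKM in cortex and to 0.109 and 0.094 FPKM in hypothalamus, so levels below these values were not resolved at this depth.

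A transcript was tested when its mean was 1 FPKM or more in cortex or in hypothalamus, which 634 transcripts at 512 loci passed. Cortex reached that level for 472 of them, hypothalamus for 243, and both tissues for 81. Most tested transcripts thus entered through 1 tissue only, and the share called below describes the transcripts that passed. The 2 columns of a tissue correlated across the tested transcripts at r = 0.871 in cortex and 0.928 in hypothalamus on the log2(FPKM + 0.1) scale, and differed by 4-fold or more for 21 of 472 transcripts in cortex and 12 of 243 in hypothalamus. Both values run across transcripts, which share loci, and describe column agreement only.

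In limma's test on log2(FPKM + 0.1), at an adjusted p below 0.05, 487 of the 634 transcripts differed (76.8% of those tested). Of these, 354 at 276 loci were higher in cortex (55.8%) and 133 at 118 loci were higher in hypothalamus (21.0%). The columns of the tissues did not overlap for 589 of 634 transcripts (92.9%), with cortex above for 422 (66.6%) and hypothalamus above for 167 (26.3%), and every called transcript was among them. The difference was at least 16-fold on that scale for 123 transcripts higher in cortex and 62 higher in hypothalamus. The other tissue was listed at 0 in both columns for 81 of the transcripts higher in cortex and for 50 of those higher in hypothalamus. An exact 0 in a file without counts can be a failed estimate, so such transcripts are described by their columns and given no fold change.

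**Figure D1:**
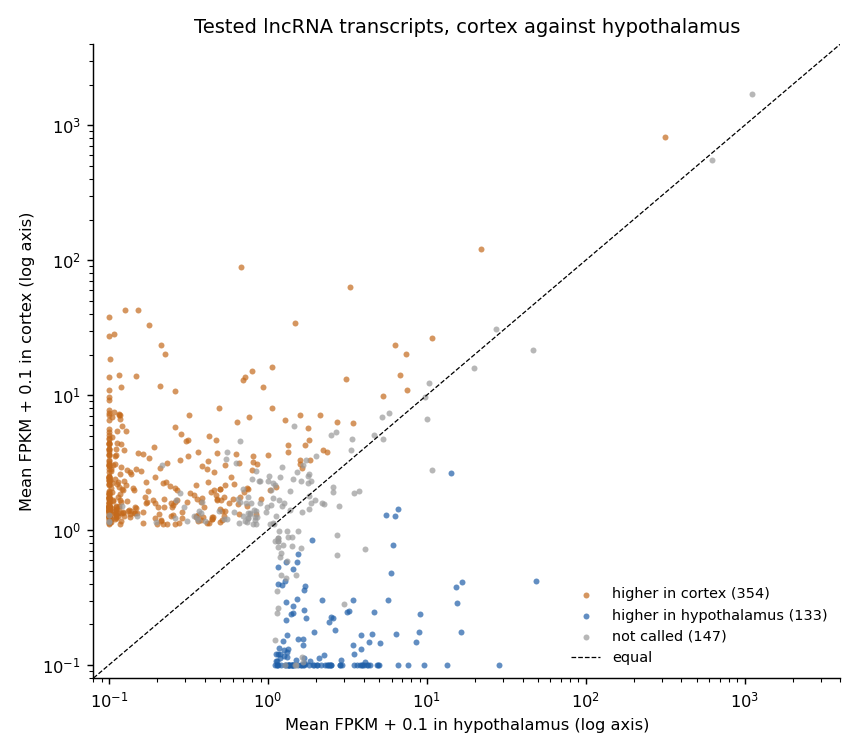
Mean FPKM + 0.1 in cortex (vertical, log axis) against hypothalamus (horizontal, log axis) for the 634 tested transcripts, one point each, with the line of equal levels dashed. The 354 transcripts higher in cortex and the 133 higher in hypothalamus crowd along the axes where the other tissue is near 0, and 81 transcripts have a mean of 1 FPKM or more in both tissues.

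The balance between the directions depended on how the columns were scaled. Over the 508 transcripts above 0 in every column, the column medians were 0.787 and 0.778 FPKM in cortex. They were 0.384 and 0.367 FPKM in hypothalamus, the lowest of all columns. In the other tissues they lay between 0.637 FPKM (liver column 2) and 0.923 FPKM (outer medulla column 2). The median log2 difference over the tested transcripts, cortex minus hypothalamus, was 1.83 as deposited, and 1.44 over the 396 transcripts above 0 in all 4 columns. With every column rescaled to the same median, the median over all 634 tested transcripts was 0.95, a shift of -0.87 (log2) from 1.83. With equal totals after the 10 most abundant transcripts were left out it was 1.08, a shift of -0.75. After median rescaling 73.0% of 753 tested transcripts were called, 265 higher in cortex (35.2%) and 285 higher in hypothalamus (37.8%). After rescaling of totals 71.2% of 773 were called, 281 higher in cortex (36.4%) and 269 higher in hypothalamus (34.8%). A rule of size with no test, every column of 1 tissue at least 5-fold above every column of the other on the FPKM + 0.1 scale, took 57.3% of the 634, 252 with cortex above and 111 with hypothalamus above, and 359 of these were also called by limma. Cortex held 72.7% of the calls as deposited, 48.2% after median rescaling and 51.1% after rescaling of totals. All 133 transcripts called higher in hypothalamus and 264 of the 354 called higher in cortex were called in the same direction under both rescalings. No call reversed. The rescalings divided the cortex columns by 1.04 to 1.14 and the hypothalamus columns by 0.529 to 0.557, which raised hypothalamus against cortex. The keeping of all 133 was therefore nearly fixed in advance, and only calls higher in cortex were put to a test. The differences below are as deposited unless a rescaling is named.

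**Figure D2:**
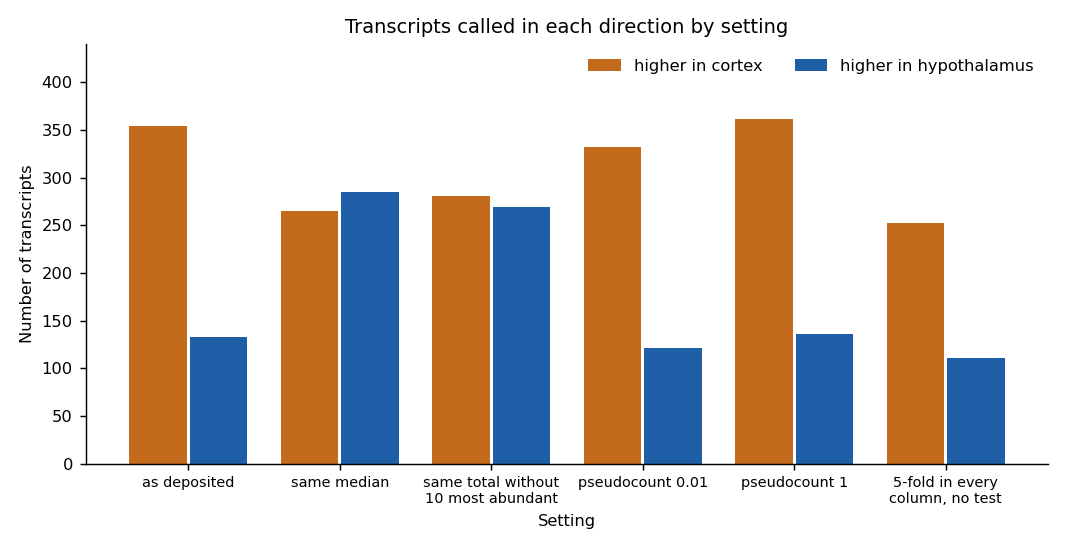
Number of transcripts (vertical) called higher in cortex or higher in hypothalamus under 6 settings (horizontal); the last setting is a rule of size with no test. As deposited the counts are 354 and 133, and under the 2 rescalings they are 265 and 285, and 281 and 269.

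Among transcripts higher in cortex, the largest difference on the log2(FPKM + 0.1) scale belonged to TCONS_00037999 (chromosome 15, 30010515 to 30035706, rn5), where no reference gene is annotated. It had 28.3 and 47.4 FPKM in cortex and was listed at 0 in both hypothalamus columns (limma adjusted p = 0.0020). Outer medulla had 29.6 and 29.1 FPKM of it, close to cortex. Next came TCONS_00005818, which shares splice junctions with Glyat (chromosome 1, 236219825 to 236241073), the mitochondrial enzyme that joins glycine to acyl groups for excretion. It had 44.0 and 41.7 FPKM in cortex and 0 and 0.051 FPKM in hypothalamus, a log2 difference of 8.45 ± 0.71 (SE; adjusted p = 1.9e-05, limma). Both cortex columns lay far above both hypothalamus columns, and liver, a main site of this enzyme, had 53.8 and 291 FPKM.

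Next in size was TCONS_00035632 (chromosome 15, 8606550 to 8618498, no reference gene), with 28.0 and 27.0 FPKM in cortex and a listing at 0 in both hypothalamus columns (limma adjusted p = 0.00012). TCONS_00007551 (chromosome 1, 35676445 to 35681226, no reference gene) had 17.0 and 19.8 FPKM in cortex and 0.0013 and 0.0023 FPKM in hypothalamus, where the hypothalamus levels were below the depth limit. The Slc12a1 transcript described above (TCONS_00067610, chromosome 3, 123944514 to 124022076) followed with a limma adjusted p of 0.00072. It overlaps exons of that gene, so fragments of the transporter's messenger RNA may be shared with it, and how many were was not tested. The tenth, TCONS_00100529 (chromosome 8, 33536860 to 33572665), had 21.2 and 19.2 FPKM in cortex and 0.18 and 0.071 FPKM in hypothalamus, a log2 difference of 6.53 ± 0.79 (SE; adjusted p = 0.00012, limma). Outer medulla had 47.3 and 49.4 FPKM of it, above cortex. All 10 transcripts chosen by size of difference in this direction kept their call under all settings tried.

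Among transcripts higher in hypothalamus, the largest difference belonged to TCONS_00111810 (chromosome X, 107512729 to 107513812, no reference gene), which is 239 bases long. It was listed at 0 in both cortex columns and had 24.3 and 32.2 FPKM in hypothalamus (limma adjusted p = 1.4e-05). The adrenal gland had 1.14 and 5.37 FPKM of it, and left ventricle, liver and outer medulla were listed at 0. TCONS_00011497 (chromosome 1, 201907284 to 201977719, no reference gene) was likewise listed at 0 in both cortex columns and had 14.97 and 11.54 FPKM in hypothalamus (limma adjusted p = 2.6e-06). TCONS_00028980 (chromosome 13, 75525885 to 75529130, no reference gene) had 0.038 and 0.11 FPKM in cortex and 8.28 and 9.31 FPKM in hypothalamus, a log2 difference of -5.70 ± 0.44 (SE; adjusted p = 1.4e-05, limma).

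A pair of the largest differences lay side by side on chromosome 6. TCONS_00090635, which overlaps the unnamed reference gene ENSRNOG00000041744 (142821642 to 142853124), had 0.10 and 0.53 FPKM in cortex and 44.2 and 52.4 FPKM in hypothalamus, a log2 difference of -7.07 ± 0.77 (SE; adjusted p = 6.3e-05, limma). TCONS_00090674 (142873330 to 142993513) had 0.086 and 0.065 FPKM in cortex and 14.8 and 17.7 FPKM in hypothalamus, a log2 difference of -6.54 ± 0.65 (SE; adjusted p = 4.1e-05, limma). The adrenal gland was as high as the hypothalamus for both, with 47.1 and 43.0 FPKM of TCONS_00090635 and 24.5 and 19.9 FPKM of TCONS_00090674. Of the 10 chosen in this direction, 2 short ones did not keep their call under every setting. They were TCONS_00106391 (241 bases, chromosome 9), listed at 0 in cortex with 5.88 and 7.05 FPKM in hypothalamus, and TCONS_00041711 (214 bases, chromosome 16), with 0 and 0.62 FPKM in cortex and 16.3 and 17.0 FPKM in hypothalamus. Their limma adjusted p values were 0.023 and 0.017 as deposited, and each was above 0.05 in 5 settings, at most 0.131 for TCONS_00106391 and 0.122 for TCONS_00041711.

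**Figure D3:**
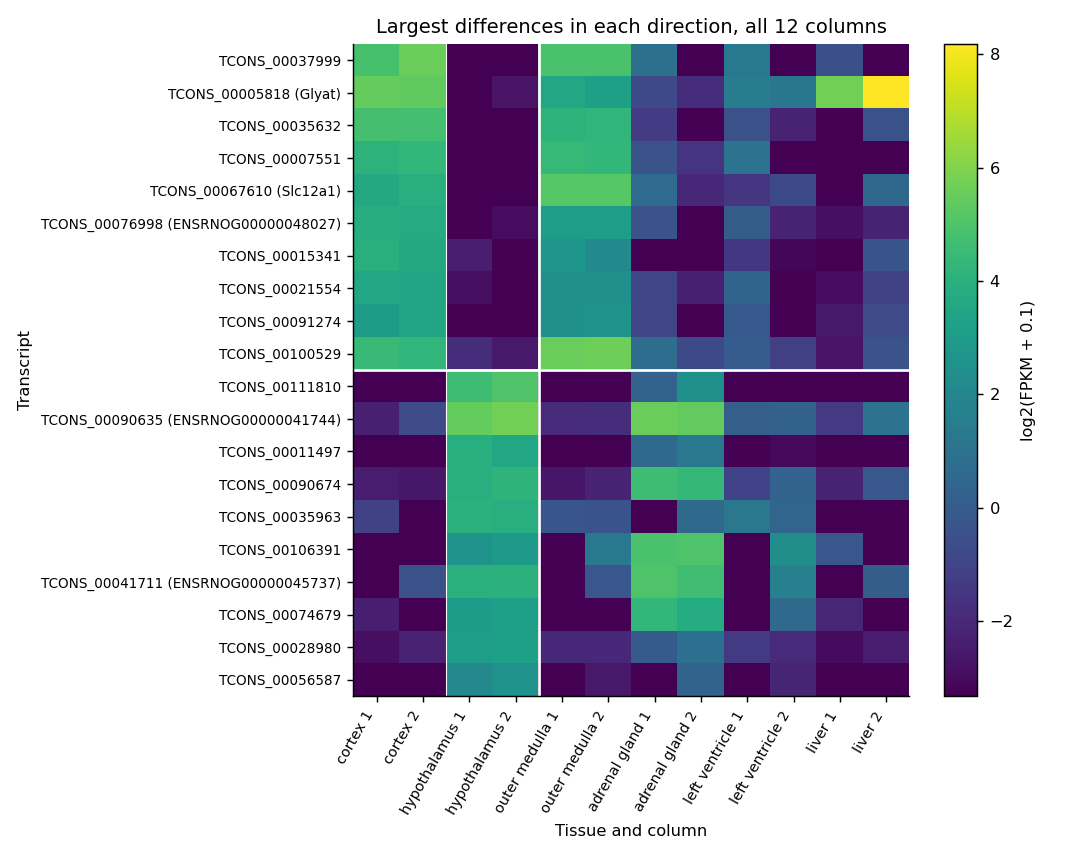
Levels as log2(FPKM + 0.1) (colour) of the 10 transcripts with the largest difference in each direction (rows; higher in cortex above the line) in all 12 columns of the 6 tissues. The transcripts higher in cortex are also bright in outer medulla, for example 47.3 and 49.4 FPKM of TCONS_00100529, and several higher in hypothalamus are bright in adrenal gland, for example 47.1 and 43.0 FPKM of TCONS_00090635.

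Transcripts assigned to microRNA genes were called in both directions. The table holds 81 of them at 22 loci, of which 16 were tested, 5 were called higher in cortex (background 55.8%) and 8 higher in hypothalamus (background 21.0%). Their median log2 difference was -1.94, beside 1.83 over all tested transcripts. A locus on chromosome X (77086036 to 77151776) gave 3 of the 8. Its Mir384 transcript TCONS_00113683 had 0.039 and 0.051 FPKM in cortex and 4.71 and 5.28 FPKM in hypothalamus, a log2 difference of -5.13 ± 0.39 (SE; adjusted p = 1.4e-05, limma). The Mir325 transcript TCONS_00113689 had 0.011 and 0.052 FPKM in cortex and 3.56 and 3.94 FPKM in hypothalamus, and the second, TCONS_00113684, had 1.2e-05 and 0.017 FPKM in cortex and 2.71 and 2.83 FPKM in hypothalamus. The 3 transcripts share a locus and are not independent. All belong to the locus that encodes rno-miR-384 and rno-miR-325, whose sequences are given above.

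The host transcript of Mir7a-2, a microRNA known from neuroendocrine tissue, had 0.012 and 0.014 FPKM in cortex and 1.88 and 2.12 FPKM in hypothalamus (log2 difference -4.22 ± 0.30, SE; limma adjusted p = 1e-05). Adrenal gland, another endocrine tissue, had 0.78 and 0.98 FPKM of it. The Mir124-2 transcript, given above, had a log2 difference of -4.02 ± 0.39 (SE; limma adjusted p = 3.5e-05). Mir129-2, whose product is abundant in brain, was listed at 0 in both cortex columns and had 1.12 and 1.01 FPKM in hypothalamus (limma adjusted p = 0.00054). The transcript at rno-mir-679 had 0.090 and 0.045 FPKM in cortex and 1.19 and 1.24 FPKM in hypothalamus, a log2 difference of -2.98 ± 0.28 (SE; limma adjusted p = 3.1e-05). The transcript at rno-mir-6326 was listed at 0 in cortex and had 1.26 and 0.81 FPKM in hypothalamus. Its limma adjusted p was 0.038, and between 0.0508 and 0.122 in the 7 settings that lost the call.

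In the other direction, the transcript over Mir675, a microRNA cut from the imprinted growth-regulating RNA H19, had 14.3 and 17.8 FPKM in cortex and 1.14 and 0.77 FPKM in hypothalamus, a log2 difference of 3.95 ± 0.52 (SE; limma adjusted p = 0.00018). Outer medulla did not share the cortex level, at 0.32 and 0.18 FPKM, whereas liver had 39.2 and 100.3 FPKM. The Mir143 locus, known from smooth muscle, gave 2 transcripts. TCONS_00050239 had 2.15 and 2.22 FPKM in cortex and 0.14 and 0.12 FPKM in hypothalamus (log2 difference 3.33 ± 0.30, SE; limma adjusted p = 2.6e-05), and TCONS_00050246 had 1.54 and 1.48 FPKM in cortex and 0.20 and 0.12 FPKM in hypothalamus. The antisense transcript at Mir365 had 2.84 and 3.24 FPKM in cortex and was listed at 0 in hypothalamus (limma adjusted p = 0.00019).

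The Mir29b-2 locus on chromosome 13 (118271149 to 118366003) held isoforms that differed in opposite directions in their values. TCONS_00030100 had 2.40 and 2.32 FPKM in cortex and 0.54 and 0.43 FPKM in hypothalamus, a log2 difference of 2.07 ± 0.33 (SE; limma adjusted p = 0.00051). TCONS_00030097 had 0.79 and 0.55 FPKM in cortex and 1.21 and 1.41 FPKM in hypothalamus, with no overlap of columns, a log2 difference of -0.89 ± 1.01 (SE) and a limma adjusted p of 0.44. Fitted on the 4 columns of these tissues alone, the second isoform had an adjusted p of 0.032 (limma).

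**Figure D4:**
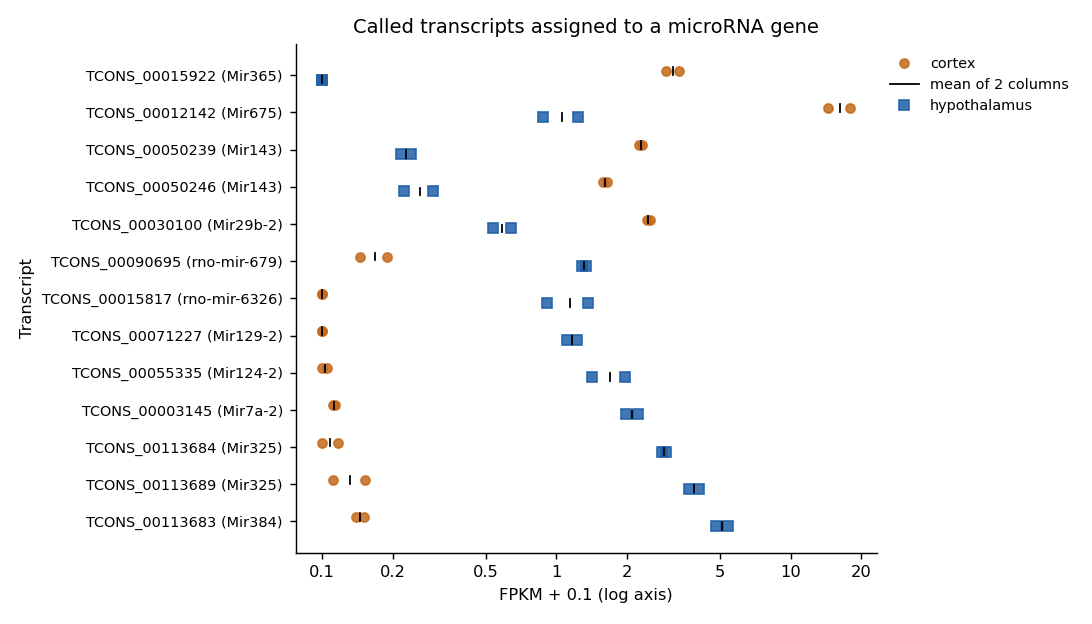
FPKM + 0.1 (log axis) of the 13 called transcripts assigned to a microRNA gene, with both columns of cortex (circles) and of hypothalamus (squares) and the mean of each as a black tick. Of the 13, 5 have cortex on the right, up to 17.8 FPKM for Mir675, and 8 have hypothalamus on the right, up to 5.28 FPKM for Mir384. Their columns do not overlap, which held for every called transcript and for 92.9% of the 634 tested.

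Few other listed genes had a tested transcript. A transcript overlapping Sox2 (TCONS_00055701, chromosome 2, 140593626 to 140862826), the transcription factor of neural stem cells and glia, had 0.056 and 0.041 FPKM in cortex and 4.04 and 4.41 FPKM in hypothalamus, a log2 difference of -4.86 ± 0.93 (SE; limma adjusted p = 0.0014). It was the 1 tested of 4 Sox2 transcripts, and the other 3 had at most 0.031 FPKM in cortex, and between 0.11 and 0.92 FPKM in hypothalamus. Snhg11, a small nucleolar RNA host gene known from neurons, had 4e-05 and 0.76 FPKM in cortex and 3.48 and 8.22 FPKM in hypothalamus. It also had 2.76 and 2.23 FPKM in outer medulla and 0.12 and 1.39 FPKM in liver. Its limma adjusted p was 0.032, and between 0.0572 and 0.216 in the 5 settings that lost the call. A transcript antisense to Dlx6, a transcription factor of inhibitory neurons, was below the testing level with 0.018 and 0 FPKM in cortex and 0.31 and 0.54 FPKM in hypothalamus.

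The adrenal gene Cyp11b3, of the steroid 11-hydroxylase family, had an overlapping transcript (TCONS_00098844) listed at 0 in both cortex columns, with 5.89 and 1.21 FPKM in hypothalamus and 60.5 and 44.4 FPKM in adrenal gland. Its limma adjusted p was 0.0090, and 0.0777 without hypothalamus column 1, where it was highest. A transcript of the same chromosome 7 interval antisense to Timm8a1, a mitochondrial import chaperone, followed the same order, with 0 and 0.080 FPKM in cortex, 4.85 and 1.86 FPKM in hypothalamus and 51.4 and 41.6 FPKM in adrenal gland. This gene was chosen after its values were seen. The part of adrenal RNA in the hypothalamus values was not tested. Of 32 imprinted symbols, Mir675 and Plagl1, a zinc-finger regulator of growth, occurred. The Plagl1 transcript had 1.64 and 1.59 FPKM in cortex and 1.20 and 0.75 FPKM in hypothalamus and was not called (log2 difference 0.71, 95% interval -0.15 to 1.57, limma adjusted p = 0.11). No symbol starting with Hox occurred.

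The following gene-linked transcripts were chosen after their values were seen. Tcf21, a transcription factor of kidney mesenchyme and podocytes, had an antisense transcript at 0.79 and 1.26 FPKM in cortex that was listed at 0 in hypothalamus (limma adjusted p = 1.3e-05). Outer medulla had 0.0026 and 0.0002 FPKM of it, so this transcript separated cortex from outer medulla as well. Transcripts at 2 Iroquois factors, which pattern the nephron, were higher in cortex: Irx2 with 1.06 and 1.42 FPKM in cortex and 0.018 and 0.069 FPKM in hypothalamus, and antisense Irx3 with 0.94 and 1.09 FPKM in cortex and 0.037 and 0 FPKM in hypothalamus. The log2 differences were 3.23 ± 0.69 and 3.25 ± 0.31 (SE), with limma adjusted p values of 0.0026 and 3.2e-05. The Tcf21 and Irx3 transcripts fell below the testing level after either rescaling.

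Transcripts antisense to Slc22a13, an organic anion transporter, and Fggy, a carbohydrate kinase, were also higher in cortex, as was one antisense to Vstm5, a membrane protein with an immunoglobulin domain. The Vstm5 antisense transcript had 12.3 and 10.8 FPKM in cortex and 0.12 and 0.10 FPKM in hypothalamus, a log2 difference of 5.81 ± 0.53 (SE; limma adjusted p = 2.7e-05). The Fggy antisense transcript had 2.02 and 2.09 FPKM in cortex and 0.0065 and 0.050 FPKM in hypothalamus. A short transcript at Myl1, a myosin light chain of fast muscle, had 32.1 and 36.5 FPKM in cortex and 1.60 and 1.16 FPKM in hypothalamus (limma adjusted p = 0.0068). Its level in outer medulla was 0.69 and 0.94 FPKM, below cortex.

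In hypothalamus, Ap1s2, a subunit of the clathrin adaptor of vesicle traffic, had a transcript listed at 0 in both cortex columns and at 4.13 and 3.46 FPKM in hypothalamus (limma adjusted p = 9.7e-05). The transcript at Celf3, which encodes a neuronal RNA-binding splicing factor, had 0.18 and 0.34 FPKM in cortex and 1.52 and 1.68 FPKM in hypothalamus. Its log2 difference was -2.27 ± 0.60 (SE, limma adjusted p = 0.0080). The transcript at Cxxc4, which encodes an inhibitor of Wnt signalling, had 0.017 and 0 FPKM in cortex and 1.62 and 1.20 FPKM in hypothalamus. A transcript antisense to the semaphorin receptor Plxna4a was listed at 0 in cortex with 1.60 and 1.44 FPKM in hypothalamus. The transcript at Sez6, which encodes a seizure-related neuronal membrane protein, had 0.12 and 0.25 FPKM in cortex and 2.97 and 2.84 FPKM in hypothalamus. Its columns did not overlap, but its limma adjusted p was 0.068. Its liver columns stood at 4.13 and 0 FPKM, and both rescalings gave a call. The assays keep strand, but the sources used here do not state whether the counting used it, so fragments of an antisense transcript and its partner cannot be told apart.

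Called isoforms of 1 locus moved in the same direction. Of 58 loci with at least 2 called transcripts, none had calls in opposite directions as deposited. The count was between 0 and 3 in the other settings, and 3 under each rescaling. At least 3 transcripts were called higher in cortex at 19 loci and higher in hypothalamus at 3. Among these 22 loci the highest summed level in cortex lay on chromosome 15 (30010515 to 30035706), where the transcripts summed to 142 and 170 FPKM in cortex and to 0.376 and 0.806 FPKM in hypothalamus. It holds TCONS_00037999, described above, and the more abundant TCONS_00037997, with 80.8 and 98.1 FPKM in cortex and 0.38 and 0.79 FPKM in hypothalamus (log2 difference 7.10 ± 1.06, SE; limma adjusted p = 0.00036). The Glyat locus summed to 123 and 116 FPKM in cortex and 0.135 and 0.178 FPKM in hypothalamus.

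A locus on chromosome 19 (27667530 to 27699662, no reference gene) had the most called transcripts, 6 of 9 in the table. It summed to 11.2 and 11.4 FPKM in cortex and 0.0357 and 0.0273 FPKM in hypothalamus. At the Mxi1 locus, a repressor of Myc targets, all 3 antisense transcripts were higher in cortex, and the sum was 7.46 and 8.52 FPKM in cortex and 0.0357 and 0.0449 FPKM in hypothalamus. In the other direction the chromosome X locus of TCONS_00111810 was listed at 0 in both cortex columns and summed to 39.2 and 51.6 FPKM in hypothalamus. The chromosome 1 locus of TCONS_00011497 summed to 0.200 and 0.356 FPKM in cortex and 32.5 and 32.7 FPKM in hypothalamus. On sums per locus, 78.6% of 579 tested loci were called by limma, 317 higher in cortex (54.7%) and 138 higher in hypothalamus (23.8%).

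Called loci also lay in runs. Runs of at least 3 neighbouring loci called in 1 direction, each within 250 kb of the next, were counted by a rule set after values were seen. There were 4 such runs higher in cortex and 5 higher in hypothalamus. The rule takes loci that were already called, so a high share of calls within a run follows largely from it. Over all tested transcripts 55.8% were called higher in cortex and 21.0% higher in hypothalamus. The longest lay on chromosome 9 (11060508 to 11560435), where 9 loci were higher in hypothalamus and the 11 transcripts tested included 9 called. Their hypothalamus levels lay between 0.93 and 7.05 FPKM and none exceeded 0.25 FPKM in cortex. All 9 had a higher mean in adrenal gland than in hypothalamus, up to 29.2 and 31.9 FPKM for TCONS_00106391. They share 1 listed interval, so sequence shared between them could split fragments among them, and their values are uncertain.

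A run on chromosome 6 (142821642 to 143062780) held 4 loci and 5 transcripts, all 5 of those tested there, and includes TCONS_00090635, TCONS_00090674 and the rno-mir-679 transcript. In mouse, mir-679 belongs to the imprinted Dlk1-Dio3 domain. On chromosome 1, runs of 3 loci (121986825 to 122148062) and 4 loci (123914615 to 123997923) held 7 tested transcripts, all called higher in hypothalamus. The choice of runs by their calls favoured this count and the 5 above. In the first, TCONS_00009693 had 0 and 0.011 FPKM in cortex and 3.67 and 4.35 FPKM in hypothalamus, a log2 difference of -5.28 ± 0.74 (SE; limma adjusted p = 0.00025). In the second, TCONS_00009881 had 0.14 and 0 FPKM in cortex and 5.54 and 7.03 FPKM in hypothalamus. In cortex, a run on chromosome 6 (23086976 to 23420140) included TCONS_00091268, with 7.49 and 7.21 FPKM in cortex and 0.0097 and 0.0067 FPKM in hypothalamus.

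The 5 most abundant transcripts of each tissue did not all separate the tissues. Among them, TCONS_00037997 was called higher in cortex and TCONS_00090635 higher in hypothalamus, both with large differences given above. TCONS_00032703, 653 bases long and overlapping the unnamed gene ENSRNOG00000049138 on chromosome 14, had 3416 and 0 FPKM in cortex and 891 and 1335 FPKM in hypothalamus. The cortex columns thus lay on both sides of the hypothalamus, and the transcript was not called (limma adjusted p = 0.18). Without cortex column 2 its log2 difference was 1.65 (limma adjusted p = 0.0018, with the spread taken from the other tissues), and without cortex column 1 cortex was listed at 0, so single columns decided its direction. TCONS_00015674, a 267-base transcript over ENSRNOG00000047167 on chromosome 10, had 609 and 500 FPKM in cortex and 519 and 731 FPKM in hypothalamus, with overlapping columns and a log2 difference of -0.16 (95% interval -1.18 to 0.86). After median rescaling the difference was -1.22 (limma adjusted p = 0.017), a call, and after rescaling of totals it was -1.08 with no call.

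A locus on chromosome 1 (228080092 to 228091758, no reference gene) held 2 of the 5 most abundant cortex transcripts. TCONS_00012467, of 11142 bases, had 851 and 774 FPKM in cortex and 352 and 279 FPKM in hypothalamus, a log2 difference of 1.37 ± 0.20 (SE; limma adjusted p = 0.00035). After median rescaling the difference was 0.31 with an adjusted p of 0.063 (limma), and the call was also lost after rescaling of totals. TCONS_00012465 of the same locus had 105 and 138 FPKM in cortex and 22.7 and 21.0 FPKM in hypothalamus, a log2 difference of 2.45 ± 0.74 (SE), and lost its call in 7 settings. A transcript assigned to Camk2n1, which encodes an inhibitor of the synaptic kinase CaMKII, was among the 5 most abundant in hypothalamus. It had 21.2 and 21.7 FPKM in cortex and 46.2 and 46.4 FPKM in hypothalamus, and its log2 difference of -1.11 (95% interval -2.27 to 0.06; limma adjusted p = 0.075) was called only after rescaling or in the fit on 4 columns.

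A smaller set of lncRNAs had like levels in both tissues. Of the 81 transcripts with a mean of 1 FPKM or more in both, 28 were called higher in cortex, 4 higher in hypothalamus and 49 in neither direction. Alike transcripts were defined by a 95% interval of the log2 difference within -2 and 2, that is within 4-fold, which 41 transcripts at 40 loci met, 15 of them called. An interval within -1 and 1 was met by 9. Of the 41, 21 had no reference gene and 35 reached a mean of 1 FPKM in all 6 tissues.

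The transcript with the narrowest bound, TCONS_00067294 (11749 bases, chromosome 3, 117945186 to 117962766, no reference gene), had 9.85 and 9.27 FPKM in cortex and 10.3 and 8.90 FPKM in hypothalamus. Its columns overlapped and the log2 interval was -0.55 to 0.54. It was called higher in hypothalamus under both rescalings, with differences of -1.05 and -0.92 (limma adjusted p = 0.00087 and 0.042). TCONS_00021906 on chromosome 11 had 12.3 and 12.2 FPKM in cortex and 10.3 and 10.3 FPKM in hypothalamus, with an interval of -0.19 to 0.69. TCONS_00057724 on chromosome 2 was the most abundant of these, with 31.7 and 30.0 FPKM in cortex and 27.4 and 27.1 FPKM in hypothalamus (interval -0.43 to 0.79). A transcript sharing junctions with NUDT21, a factor of messenger RNA 3′ end processing, had 4.81 and 5.09 FPKM in cortex and 4.51 and 4.63 FPKM in hypothalamus (interval -0.58 to 0.80). One at Fry, a microtubule-binding protein of cell division and shape, had 2.37 and 1.92 FPKM in cortex and 1.74 and 1.64 FPKM in hypothalamus (interval -0.20 to 0.84).

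**Figure D5:**
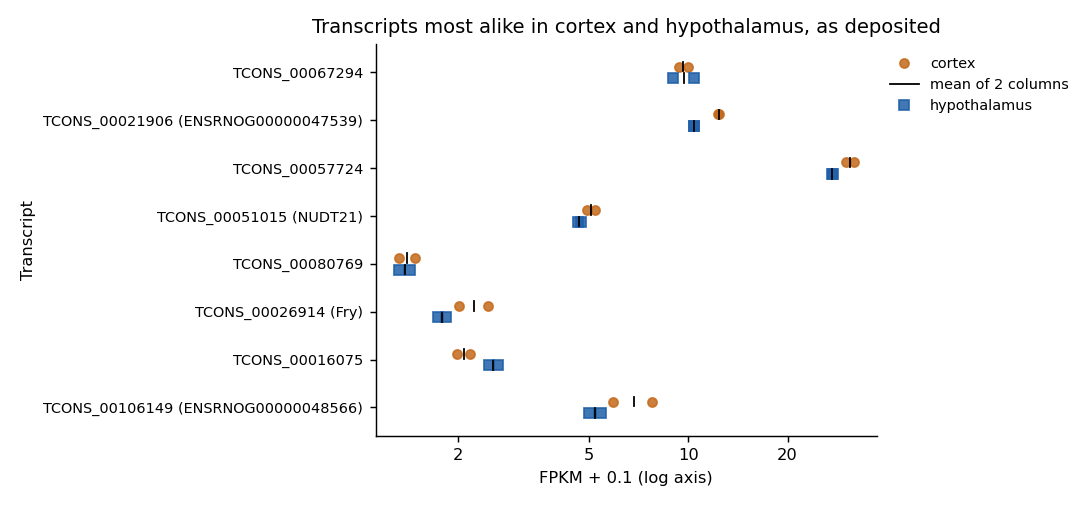
FPKM + 0.1 (log axis) of the 8 transcripts whose interval lay closest to no difference as deposited, with both columns of cortex (circles) and hypothalamus (squares) and the mean of each as a black tick. Levels run from 1.22 FPKM (TCONS_00080769) to 31.7 FPKM (TCONS_00057724), and the tissue means of each transcript lie close together.

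Which transcripts were alike also depended on the scaling. After median rescaling 134 transcripts had a mean of 1 FPKM or more in both tissues and 63 were alike, of which 31 were among the 41. An interval within -1 and 1 was then met by 26, none of them among the 9. Of the 41 alike as deposited, 14 were called higher in hypothalamus after median rescaling. The transcript whose interval then lay closest to no difference was one sharing junctions with Chd2, a chromatin remodeller, with 3.35 and 3.02 FPKM in cortex and 1.71 and 1.27 FPKM in hypothalamus as deposited, a log2 difference of 1.06 as deposited and 0.05 after rescaling. The transcript antisense to Eif4b, a translation initiation factor, had 6.28 and 6.26 FPKM in cortex and 2.77 and 2.46 FPKM in hypothalamus, and its difference was 1.23 as deposited and 0.20 after rescaling.

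The transcripts that separated the tissues were often present in another tissue as well. Outer medulla was the highest of the other 4 tissues for 221 of the 354 transcripts higher in cortex. Its median level was 61.5% of the cortex level (quartiles 25.9 and 100%), and it reached at least 50% for 202 and stayed under 10% for 41. None of the other 4 tissues reached 10% of cortex for 28. For the 133 transcripts higher in hypothalamus, adrenal gland was the highest of the other 4 tissues for 96, with a median level of 16.4% of hypothalamus (quartiles 9.95 and 64.3%). That median depended on the adrenal column, at 9.99% from column 1 and 24.4% from column 2. Adrenal column 2 was the higher for several hypothalamus transcripts, with 0 and 0.89 FPKM of the Sox2 transcript TCONS_00055701 and 0 and 1.76 FPKM of Snhg11 in the adrenal columns. None of the 4 reached 10% of hypothalamus for 27. These percentages are as deposited and were not computed after rescaling. The rescalings divided the hypothalamus columns by 0.529 to 0.557 and the adrenal columns by 0.95 to 1.14. They would thus lower adrenal levels against hypothalamus.

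The hypothalamus columns are set out here by adrenal level as deposited, and a rescaling would move transcripts between these levels. For the 27 transcripts whose adrenal mean was at or above the hypothalamus mean, hypothalamus column 1 was the higher column for 18. Their median ratio of column 1 to column 2 was 1.17. For the 34 with adrenal under 10% of hypothalamus, column 1 was higher for 12 and the median ratio was 0.919. For the 72 between these levels, column 1 was higher for 16 and the median ratio was 0.89. The 27 include the 9 called transcripts of the chromosome 9 run, which share 1 listed interval and are not independent. The part of adrenal RNA in these differences was not tested.

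Calls were also counted by relation to reference genes. Of 446 tested transcripts with no reference gene, 269 were higher in cortex and 92 higher in hypothalamus. Of 41 antisense to an exon, 32 were higher in cortex and 5 higher in hypothalamus. Of 50 sharing a splice junction with a gene, 22 were higher in cortex and 6 higher in hypothalamus. Of 22 matching a reference transcript, 10 were higher in cortex and 1 higher in hypothalamus. The class of other exon overlap had the reverse order, with 21 higher in cortex and 29 higher in hypothalamus of 75 tested, which are 28.0% and 38.7% beside 55.8% and 21.0% over all tested transcripts. These counts depended on scaling. After median rescaling, 16 transcripts of the other-overlap class were higher in cortex and 50 higher in hypothalamus. The shared-junction class also turned, with 8 higher in cortex and 16 higher in hypothalamus. The class with no reference gene had 214 higher in cortex and 207 higher in hypothalamus. Over all 753 transcripts tested after that rescaling, 35.2% were higher in cortex and 37.8% higher in hypothalamus. The number tested per class after rescaling is not given here, so the rescaled class counts cannot be read as shares. The median length was 1879.5 bases for transcripts higher in cortex, 1446 bases for those higher in hypothalamus and 975 bases for those not called.

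By chromosome, beside 55.8% higher in cortex and 21.0% higher in hypothalamus over all tested transcripts, hypothalamus held more calls than cortex as deposited on chromosome X, with 5 of 23 tested transcripts higher in cortex and 11 higher in hypothalamus, and on chromosome 9, with 10 of 32 higher in cortex and 14 higher in hypothalamus. After median rescaling the counts were 3 higher in cortex and 16 higher in hypothalamus on chromosome X. On chromosome 9 they were 6 higher in cortex and 21 higher in hypothalamus. Hypothalamus then held more calls on chromosomes 3, 4, 6, 7, 10 and 12 too. It also held more over all 753 transcripts tested after that rescaling, with 35.2% higher in cortex and 37.8% higher in hypothalamus. The number tested per chromosome after rescaling is not given here, so the rescaled counts cannot be read as shares. The chromosome 9 count includes the 9 neighbouring loci described above, and the chromosome X count includes 3 transcripts each of the Mir384 locus and of the TCONS_00111810 locus. On chromosome 19, 15 of 16 tested transcripts were higher in cortex and none higher in hypothalamus as deposited. Of the 15, 6 are isoforms of 1 locus (27667530 to 27699662) and are not independent. After median rescaling 10 transcripts of chromosome 19 were higher in cortex and 3 higher in hypothalamus.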

How the data were processed

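One table of FPKM per transcript, deposited by the authors with 2 columns for each of 6 tissues and the transcript length in bases, was used as deposited. The submitters' processing notes name bcl2fastq 2.15.0 and the genome build rn5; aligner, assembler and strand setting: not given in the sources used here. Coordinates are those of the deposited table, per the file headers. Of 2458 transcripts, 3 had no values and were left out. The members and gene lists were chosen with earlier results of these data known.

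The test took transcripts whose mean reached 1 FPKM in cortex or hypothalamus. They were compared on log2(FPKM + 0.1) with limma 3.58.1 (R 4.3.3; mean-variance trend, tissue as the only term, 12 columns), adjusted by Benjamini-Hochberg over all 634 tested and called at an adjusted p below 0.05. A fold change on that scale understates the change of low transcripts. Depth was estimated from the steps of low FPKM values in transcripts alone at their locus, assuming a fragment of 140 bases: 80.6 to 85.9% of such values lay within 0.15 of a whole fragment. These limits cover counting error only. The fit was tested on simulated data. Named transcripts are the 10 called ones with the largest difference in each direction with columns apart, 1 per locus, the 5 most abundant per tissue, the 8 most alike, called members of the lists, and loci with isoforms in opposite directions or with at least 3 calls in 1 direction; others are said to be chosen after their values were seen. Alternatives were another pseudocount, minimum, scaling, set of columns, a block by column number, columns left out, a 5-fold rule, sums per locus and the transcripts with no reference gene. RefSeq microRNA sequences were matched by symbol.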

Additional observations from a re-analysis of the deposited data

How the results depend on the processing

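Of 50 named transcripts under 720 combinations with a setting, 658 kept their direction and side of the threshold, 33 lost a call, 9 gained one and 20 reversed, and 32 transcripts kept both in every setting. The 487 calls became 767 at a minimum of 0.5 FPKM and 913 with no minimum. Calls higher in cortex were 574 with no minimum. The 133 calls higher in hypothalamus were 245 at 0.5 FPKM, 339 with no minimum, 285 after median rescaling and 269 after rescaling of totals. Without 1 column of cortex or hypothalamus, calls ranged from 428 to 455, from 308 to 332 higher in cortex and from 119 to 134 higher in hypothalamus. The columns share only a number: the correlation of column 1 minus column 2 between the tissues was 0.152, and a block by column number gave 491 calls, 358 higher in cortex and 133 higher in hypothalamus. Loci with isoforms in opposite directions, 0 as deposited, were 1 at 0.5 FPKM, 2 with no minimum, 3 and 3 under the rescalings, 1 in the fit on 4 columns, 1 at a pseudocount of 1, and 0 to 1 without 1 column, with 1 without cortex column 1 and 1 without hypothalamus column 1.

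Transcripts detected in both tissues, 154 at 0.5 FPKM, were 479 at 0.1 FPKM and 63 at 1 FPKM. Those in cortex alone were 286 at 1 FPKM, and those in hypothalamus alone were 121 at 1 FPKM and 330 after median rescaling. The 41 alike transcripts were 9 within the narrower interval, 63 after median rescaling and 67 after rescaling of totals. The log2 difference changed sign after median rescaling and rescaling of totals for TCONS_00021906 (-0.80 and -0.66), TCONS_00057724 (-0.88 and -0.74), TCONS_00051015 of NUDT21 (-0.93 and -0.79), TCONS_00080769 (-0.97 and -0.84), TCONS_00026914 of Fry (-0.69 and -0.56) and TCONS_00106149 (-0.66 and -0.52). Median rescaling and rescaling of totals gave a call higher in hypothalamus for TCONS_00067294 (-1.05 and -0.92) and TCONS_00016075 (-1.32 and -1.19). Without single columns the difference changed sign for 4, with ranges of -13.41 to 1.65 for TCONS_00032703 (the lower end rests on 1 cortex column listed at 0 and is set by the pseudocount), -0.41 to 0.0895 for TCONS_00015674, -0.11 to 0.10 for TCONS_00067294 (0.04 without cortex column 2) and -0.059 to 0.11 for TCONS_00080769 (-0.03 without hypothalamus column 1, also with adrenal column 2 left out). The cause of these changes was not tested. Depth limits levels under 0.202 FPKM at 1 kb in cortex and under 0.109 FPKM in hypothalamus.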
